A study of Arabidopsis thaliana with 15 samples.

Results

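The Arabidopsis thaliana double mutant ref4-3 cdk8-1 was set against the wild type (WT) in whole rosettes, over the 6 libraries that the labels give these genotypes, 3 of each, out of 15 in the series. ref4-3 is a semi-dominant point mutation of MED5B, and cdk8-1 is an insertion mutation of CDK8. The other libraries were 3 each of ref4-3, cdk8-1 and ref4-1, a further MED5B mutant, and all 5 genotypes shared the Columbia-0 background. Plants were harvested after 20 days in cycles of 16 h light and 8 h dark, 6.5 h after dawn, and RNA of each library came from 5 rosettes pooled over pots. The labels do not say that replicates were grown apart, so p-values measure the spread between pools of plants. Of 33601 loci in the count table, 18935 had over 1 CPM, a count scaled to the size of its library, in at least 3 of the 15 libraries and were tested. The question addressed was how far the transcriptome lies from WT when the altered MED5B and the loss of CDK8 are combined.

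Mediator is the large protein complex that carries signals from DNA-bound transcription factors to RNA polymerase II. MED5 belongs to its tail, where many transcription factors dock, and CDK8 is the kinase of a detachable module that it forms with cyclin C, MED12 and MED13. In Arabidopsis, ref4 mutations of MED5B lower phenylpropanoid accumulation and stunt the plants, while CDK8 is known for roles in defence and hormone signalling.

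Gene counts per library were 13418083 to 15080524 in ref4-3 cdk8-1 and 12343266 to 12623559 in WT, so that 1 count was worth 0.0663 to 0.0745 CPM in ref4-3 cdk8-1 and 0.0792 to 0.0810 CPM in WT. Replicates of ref4-3 cdk8-1 differed from each other by more than sampling noise, the chi-square statistic over its degrees of freedom being 2.89 to 3.45, against 5.08 to 5.95 among WT libraries, so each library counted as 1 replicate. Library 3 of ref4-1 stood apart from its own replicates (11.9 and 15.3), and without it 8565 genes were called in ref4-3 cdk8-1 against WT, where 8061 were called with it. Reads that fell on more than 1 annotated gene came to 2.40 to 2.74% of gene counts in ref4-3 cdk8-1 and 3.03 to 5.50% in WT. Alignments that were not unique were kept apart from gene counts. They came to 2.37 to 2.62% of gene counts in ref4-3 cdk8-1 and 2.67 to 3.01% in WT. Their part in the results was not tested.

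The targeted genes were read first. CDK8 (AT5G63610, chromosome 5, 25463362 to 25465922, TAIR10.1) had 6.57, 5.27 and 4.38 CPM in ref4-3 cdk8-1, against 20.5, 18 and 19.9 CPM in WT, and it fell by 1.84 ± 0.12 on the log2 scale (SE; edgeR quasi-likelihood test, adjusted p = 8.89e-10). No ref4-3 cdk8-1 library reached a WT library. MED5B (AT2G48110, chromosome 2, 19673293 to 19679711) had 23.64, 22.9 and 22.7 CPM in ref4-3 cdk8-1, against 27.2, 20.6 and 26.4 CPM in WT (adjusted p = 0.404). A point mutation does not show in counts per gene, so these values do not check the ref4-3 label. DJC66, a DnaJ chaperone gene at chromosome 3, 4310544 to 4311629 (AT3G13310), had 217, 207 and 237 CPM in ref4-3 cdk8-1 and 16.2, 15.8 and 12.9 CPM in WT. It rose by 3.88 ± 0.11 on the log2 scale and also stood high in ref4-3 (345 to 367 CPM) and not in cdk8-1 (11.96 to 12.9 CPM).

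Of the 18935 genes, 8061 (42.6%) differed between ref4-3 cdk8-1 and WT at an adjusted p under 0.05. Of these, 3967 (21%) were higher and 4094 (21.6%) were lower in ref4-3 cdk8-1. Scaling by library totals alone, in place of TMM factors, moved the median log2 fold change of all genes to 0.14, where it was 0.02 with TMM, and gave 6396 higher and 2854 lower genes, so that the share of higher genes among the called ones was 69.1%, against 49.2% with TMM. Over all 18935 genes, called or not, the median absolute change was 1.17-fold. At least 1.5-fold changes were called for 1455 genes that rose and 1979 that fell. At least 2-fold changes were called for 698 genes that rose (3.69%) and 1167 that fell (6.16%). The 3 libraries of each genotype did not overlap for 5081 genes that stood higher (26.8%) and 4959 that stood lower (26.2%), 53% of all genes together. The falls outnumbered the rises at 4-fold, with 414 against 179, and at 8-fold, with 147 (0.776%) against 87 (0.459%). At 32-fold or more the order turned, with 28 rises and 20 falls.

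**Figure D1:**
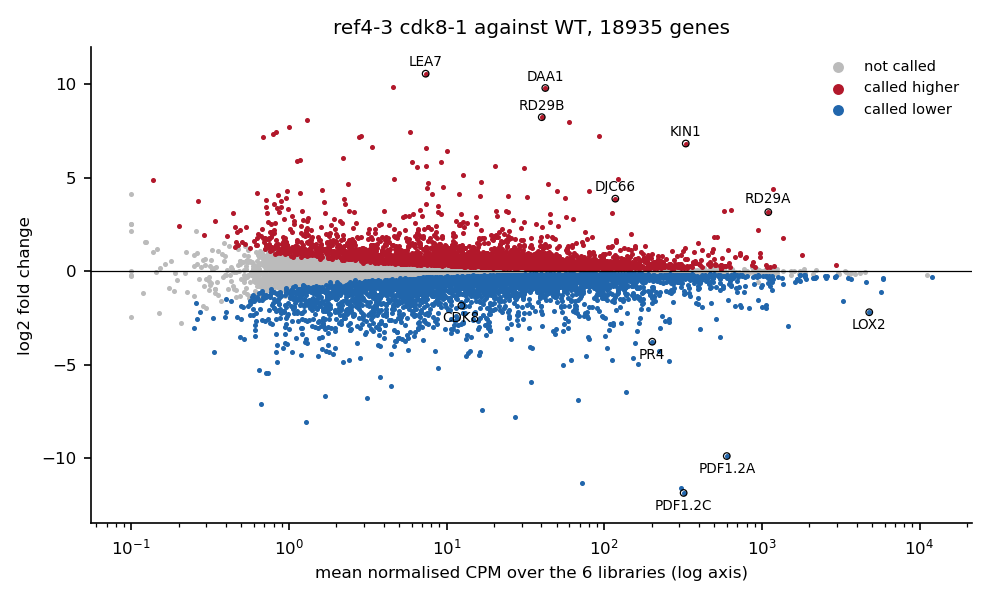
Each point is a gene, with its mean normalised CPM over the 3 ref4-3 cdk8-1 and 3 WT libraries on a log axis (means under 0.1 drawn at 0.1) and its log2 fold change, ref4-3 cdk8-1 over WT, on the other axis. Red points were called higher and blue points lower at an adjusted p under 0.05; LEA7, DAA1 and RD29B stand at the top and the PDF1.2 defensins at the bottom.

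The libraries of the combined mutant lay close together and far from WT. Over all 18935 genes the root mean square (RMS) difference in log2 CPM between a ref4-3 cdk8-1 and a WT library averaged 0.759 (0.734 to 0.789 over 9 pairs), against 0.267 between ref4-3 cdk8-1 libraries and 0.303 between WT libraries. The distance between genotypes exceeded that within them by 0.475, with p = 0.1 in a two-sided exact permutation test over the 6 libraries, the smallest p that 3 against 3 allows. The fitted fold changes were concentrated in a minority of genes. The 189 genes (1%) with the greatest changes carried 39.5% of the summed squared log2 fold changes, and the 1894 greatest (10%) carried 82.5%. Fold changes used a smaller prior count than the distances, so these are not shares of the RMS distance. On the scale of transcript abundance, 12.3% of the pool of counts (11.2 to 13.2% over the pairs) would have to be reassigned between genes to turn a ref4-3 cdk8-1 library into a WT library, against 3.22% between ref4-3 cdk8-1 replicates and 4.52% between WT replicates.

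The combined mutant lay farther from WT than either mutation alone by the measure over genes. The distance of each library from the WT mean was 0.738, 0.763 and 0.717 in ref4-3 cdk8-1, against 0.628, 0.632 and 0.662 in ref4-3, a difference of 0.0986 without overlap (two-sided exact permutation p = 0.1, the smallest possible). It was 0.535, 0.537 and 0.506 in cdk8-1, lower than ref4-3 cdk8-1 by a difference of 0.213 without overlap (two-sided exact permutation p = 0.1). The share of the pool that differed from WT was 12.3% for ref4-3 cdk8-1 (11.2 to 13.2% over the pairs), 12.9% for ref4-3 (11.5 to 14.7%) and 8.14% for cdk8-1 (7.42 to 9%), so that ref4-3 cdk8-1 and ref4-3 overlapped by this measure. All these values share the WT libraries. Set directly against the single mutants, ref4-3 cdk8-1 differed in 6242 genes (33%) from ref4-3, of which 3226 (17%) were lower and 3016 (15.9%) higher, and in 6215 genes (32.8%) from cdk8-1, of which 3105 (16.4%) were higher and 3110 (16.4%) lower. With library totals alone the split against cdk8-1 was 5279 higher and 2035 lower. Its RMS distance was 0.644 from ref4-3 and 0.591 from cdk8-1, both under its 0.759 from WT.

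**Figure D2:**
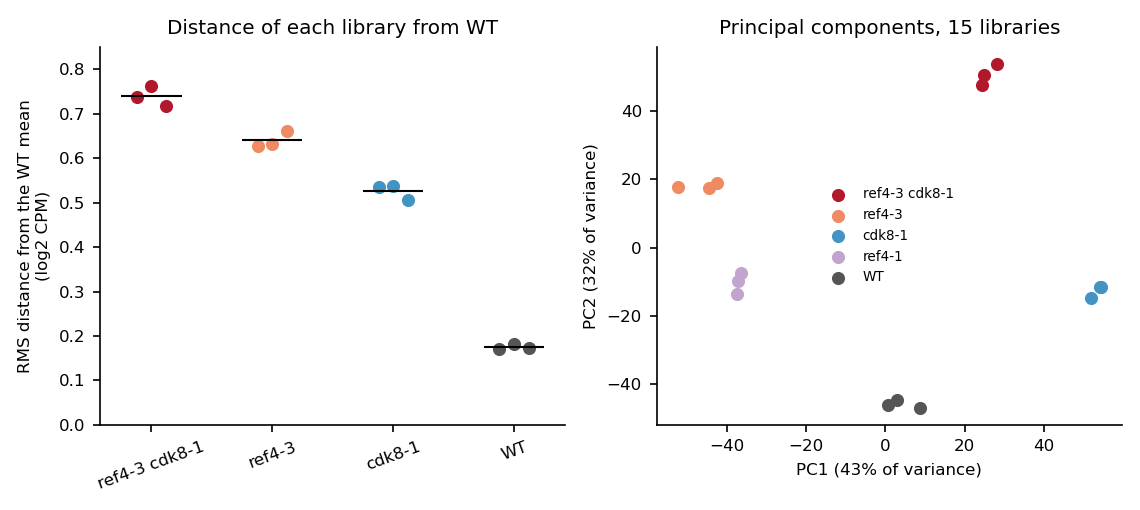
On the left, each point is a library and gives its RMS difference in log2 CPM from the mean of the 3 WT libraries, with a bar at the mean of each genotype; WT libraries enter their own mean. On the right, the first 2 principal components of log2 CPM of all 15 libraries hold 43% and 32% of the variance, and the ref4-3 cdk8-1 libraries lie at 47.7 to 53.8 on the second, against -46.9 to -44.6 for WT.

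By size, falls of at least 2-fold from WT numbered 1167 in ref4-3 cdk8-1, 603 in ref4-3 (3.18%) and 723 in cdk8-1 (3.82%). Rises numbered 698 in ref4-3 cdk8-1, 896 in ref4-3 (4.73%) and 197 in cdk8-1 (1.04%). Against ref4-3, the combined mutant showed 1103 such falls (5.83%) and 329 rises (1.74%), and against cdk8-1 it showed 452 falls (2.39%) and 585 rises (3.09%). Called genes were found at every level of expression and on every chromosome. Their share ran over quartiles of mean expression from 35.3% in the lowest to 52.4% in the highest, and over the 5 chromosomes from 40.9 to 44.7%. The estimated size of change went the other way. Rises of at least 2-fold made up 8.87% and falls 12.2% of the lowest quartile, against 1.27% and 4.35% of the highest. The median absolute log2 fold change, over called and uncalled genes, was 0.43 in the lowest and 0.19 in the highest. Mean expression in the lowest quartile was 0.307 to 6.49 CPM, where counting error widens the estimates. The part of counting error in these sizes was not tested.

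**Figure D3:**
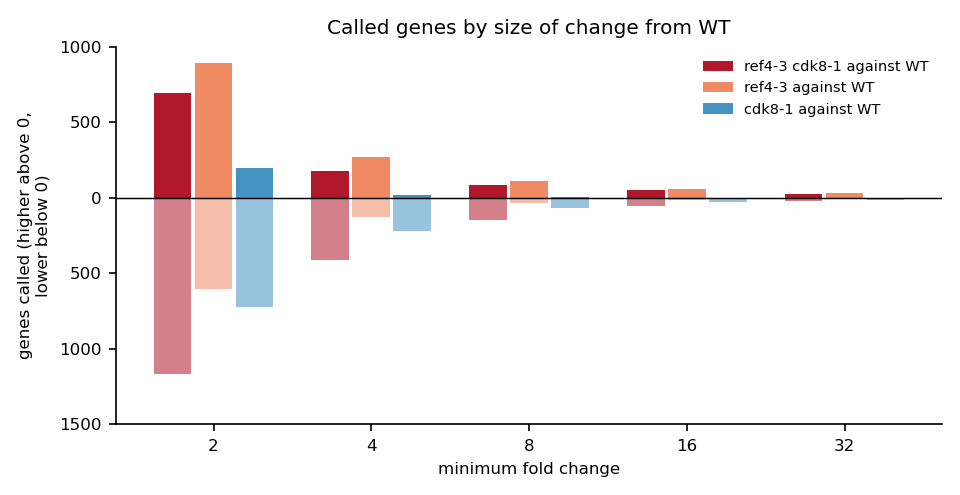
Bars above 0 count genes called higher and bars below 0 genes called lower than in WT, by the minimum fold change on the horizontal axis, for ref4-3 cdk8-1, ref4-3 and cdk8-1, which share the WT libraries. The falls of ref4-3 cdk8-1 reach 1167 at 2-fold and 147 at 8-fold.

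The 12 greatest rises included LEA7, RD29B and KIN1, known from drought and cold, beside a kinase, a sugar transporter, a light stress gene and a noncoding RNA. LEA7 (AT1G52690, chromosome 1, 19619724 to 19621534), a late embryogenesis abundant (LEA) protein that protects cells as they dry, had 10.3, 15.9 and 17.9 CPM in ref4-3 cdk8-1 and no count in any WT library. This was at least 174-fold higher, taking 3 counts over the 3 WT libraries as the floor. LEA7 shares 297 bases with AT1G52695 on the other strand. RD29B (AT5G52300, chromosome 5, 21237021 to 21239531), a classical marker of abscisic acid response, had 74.3, 82.7 and 83.3 CPM in ref4-3 cdk8-1 against 0.258, 0.169 and 0.336 CPM in WT, a rise of 8.24 ± 0.32. All groups of these genes stood apart without overlap. DAA1 (AT1G64110, chromosome 1, 23796698 to 23801799), an ATPase of the P-loop type, had 81.4, 86.8 and 85.5 CPM in ref4-3 cdk8-1 and 1 count in each WT library, a ratio of 997 with a 95% counting interval of 341 to 4840. The antifreeze-like gene KIN1 (AT5G15960, chromosome 5, 5209717 to 5210826) had 584, 645 and 729 CPM in ref4-3 cdk8-1 against 6.53, 7.01 and 3.62 CPM in WT, a rise of 6.83 ± 0.24. KIN2 (AT5G15970), the next locus by number, rose by 2.195 ± 0.12, with means of 1552 CPM in ref4-3 cdk8-1 and 338.9 CPM in WT. How reads were divided between KIN1 and KIN2 was not tested. In a pooled tissue such as this, more cells that express a gene and more RNA per cell cannot be told apart.

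Lipid transfer proteins, which carry lipids to the cuticle and are induced in drought, were also among them. LTP3 had 165, 191 and 198 CPM in ref4-3 cdk8-1 against 1.204, 1.61 and 0.841 CPM in WT (7.24 ± 0.25). LTP4 had 115, 119 and 124 CPM against 0.774, 0.338 and 0.252 CPM in WT (8.01 ± 0.34). The pair are similar neighbours, though their identity was not measured here. Reads that align to both are kept apart from gene counts, so their single values are uncertain. Both stood far above WT in every library. Of the 6 lipid transfer genes described, 4 rose (LTP1 to LTP4), against 21% of all genes, and 2 did not pass, LTP5 at 0.20 ± 0.10 and LTP6 at -0.02 ± 0.10. LTP1 had 1279, 1270 and 1306 CPM in ref4-3 cdk8-1 and 639, 722 and 637 CPM in WT. LTP5 in ref4-3 cdk8-1 against WT passed with a rise of 0.32 under library totals alone, and with 0.20 without ref4-1 replicate 3 or with only the 6 libraries compared.

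The other great rises were the kinase gene WNK9, with a ratio of 208 (57.4 to 1720), the sugar transporter gene SAG29 (6.603 ± 0.53), the LEA family gene AT3G02480 (6.41 ± 0.49), the lipid transfer family gene AT2G37870 (5.85 ± 0.42) and ELIP1 (5.64 ± 0.26), whose product protects chloroplasts in strong light. AT1G67105 (chromosome 1, 25057479 to 25058264), annotated as a noncoding RNA, had 21.4, 18.1 and 15.1 CPM in ref4-3 cdk8-1 against 0.172, 0.338 and 0.421 CPM in WT. It stood at 0.152 to 0.489 CPM in ref4-3 and 0.0843 to 1.01 CPM in cdk8-1, so that it was high in the combined mutant and in neither single one, by 5.76 ± 0.34 over ref4-3 and 5.43 ± 0.34 over cdk8-1. Against ref4-3 itself, 10 of the 12 genes with the greatest rises were higher in ref4-3 cdk8-1, where 15.9% of all genes were higher. ELIP1 was lower (-1.31), with 34.8 to 50.3 CPM in ref4-3 cdk8-1 against 82.8 to 114 CPM in ref4-3, and AT2G37870 did not pass, at 0.00. All 12 were higher than in cdk8-1, where 16.4% of all genes were higher. Against WT, 11 of the 12 were called higher in ref4-3 (20.3% of all genes) and 5 in cdk8-1 (8.06%). These 12 genes were picked on the same ref4-3 cdk8-1 and WT libraries, so the counts add no independent support.

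The 4 greatest falls were plant defensins, small antifungal peptides that jasmonate and ethylene induce together. PDF1.2A (AT5G44420, chromosome 5, 17906968 to 17907638) had 1.71, 0.571 and 1.53 CPM in ref4-3 cdk8-1, against 1073, 1026 and 1492 CPM in WT (-9.90 ± 0.46). PDF1.3 (AT2G26010, chromosome 2, 11087280 to 11088001) had 0.0714, 0.0635 and 0.438 CPM in ref4-3 cdk8-1 against 548, 497 and 793 CPM in WT (-11.63 ± 0.41). PDF1.2A had 54 counts over the 3 ref4-3 cdk8-1 libraries and 42358 over the 3 WT libraries, and PDF1.3 had 8 counts in ref4-3 cdk8-1 and 21674 in WT. PDF1.2C fell alike, with 0.0714, 0.0635 and 0.365 CPM in ref4-3 cdk8-1 against 534, 558 and 822 CPM in WT (-11.87 ± 0.47). PDF1.2B had 2 counts over the 3 ref4-3 cdk8-1 libraries and 5143 over the 3 WT libraries, and the ratio of WT over ref4-3 cdk8-1 was 3160 (875 to 26100). These 4 genes are similar in part, though their identity was not measured here. Reads that align to several of them are kept apart from gene counts, so the values of any one are uncertain. The sum over all defensin and defence genes of the list was 39.8 to 43.7 CPM in ref4-3 cdk8-1 and 2525 to 3785 CPM in WT.

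Other great falls were AT3G23550, a transporter of the MATE family (-7.82 ± 0.27), AT5G61160, an acyltransferase (-7.42 ± 0.34), the methyltransferase gene AT1G15125 (-6.87 ± 0.24), the lectin gene AT3G15356 (-6.49 ± 0.23), the ascorbate-recycling gene MDHAR (AT3G09940, -5.91 ± 0.53) and MSRB7, a repair enzyme for oxidised methionine (-5.19 ± 0.63). AT3G15356 had 3.21, 2.09 and 3.87 CPM in ref4-3 cdk8-1 against 274, 221 and 321 CPM in WT. The thionin gene AT1G66100, another antimicrobial peptide, fell by 4.99 ± 0.25, with 9.71, 7.55 and 13.1 CPM in ref4-3 cdk8-1 against 338, 384 and 236 CPM in WT, and AT3G16670, a gene of the Ole e 1 family, fell by 5.01 ± 0.25. All 12 were also called lower than WT in ref4-3 (19.6% of all genes) and in cdk8-1 (11.8%). The combined mutant was lower than ref4-3 in 11 of them (17% of all genes), MSRB7 being the exception, and lower than cdk8-1 in 11 (16.4%), PDF1.2B being the exception at -3.56 with adjusted p = 0.0969. The 12 genes were picked on the same ref4-3 cdk8-1 and WT libraries, so these counts add no independent support. PDF1.2A, for example, stood at 1.27 ± 0.61 CPM in ref4-3 cdk8-1, 27.9 CPM in ref4-3, 17.41 CPM in cdk8-1 and 1197 ± 257 CPM in WT (SD where given, n = 3).

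**Figure D4:**
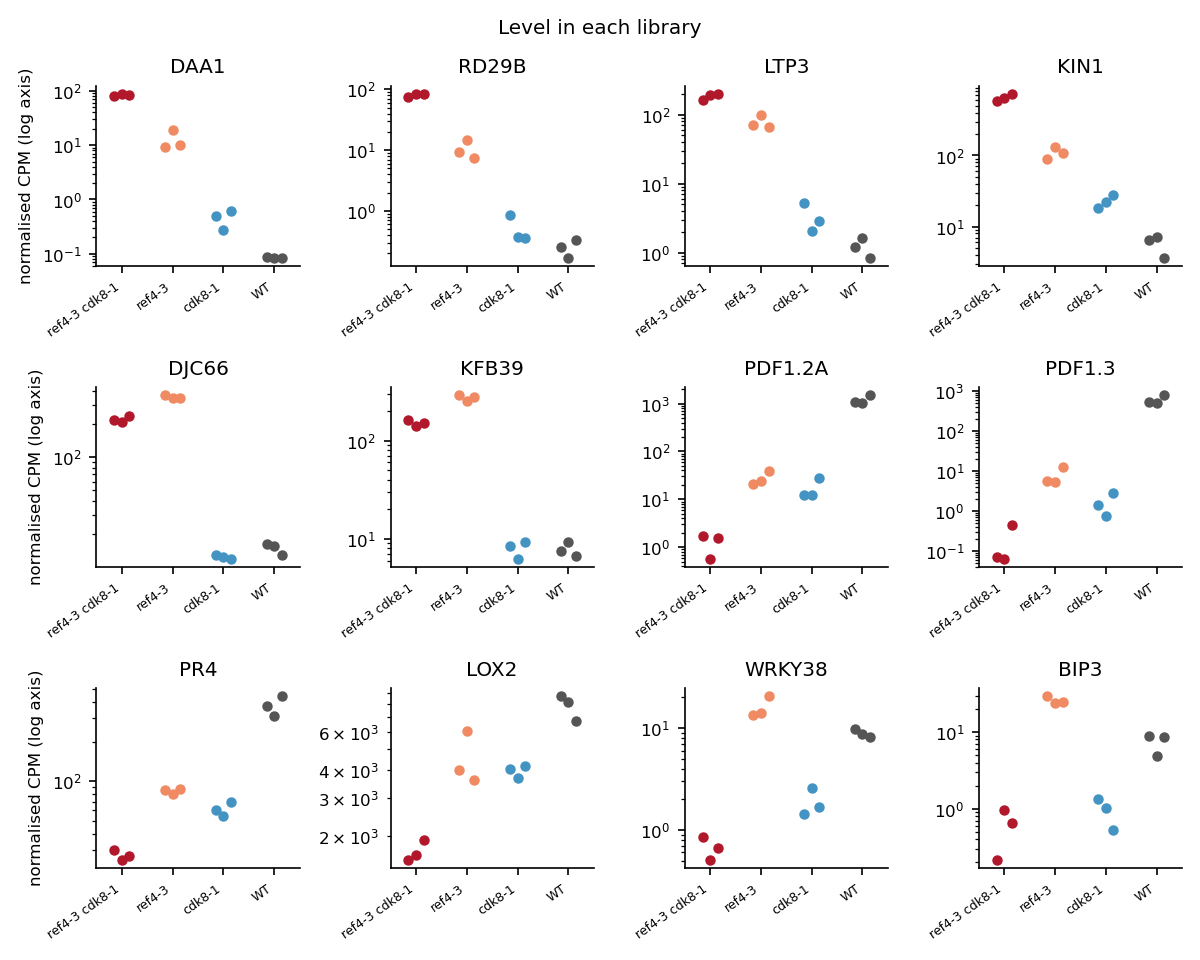
Each panel is a gene and each point a library, on a log axis of normalised CPM, for ref4-3 cdk8-1, ref4-3, cdk8-1 and WT. RD29B reaches 74.3 to 83.3 CPM in ref4-3 cdk8-1 and stays under 0.4 CPM in WT, and PDF1.2A stays under 2 CPM in ref4-3 cdk8-1 and at 1026 CPM or more in WT.

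The sequence before the start of these genes is shown because abscisic acid markers such as RD29B and defensins such as PDF1.2A are known for promoter elements, the abscisic acid response element with its core ACGTG and the GCC box GCCGCC, which factors of the ethylene response family bind. Windows of 250 bases that end just before the annotated start were read by locus from RefSeq's TAIR10.1 assembly, and both strands were searched. A palindrome CACGTG counts as 2 matches of ACGTG, and the motifs cannot overlap each other by more than 1 base. LEA7 (chr1:19619474-19619723, plus strand) held 5 matches of ACGTG, RD29B (chr5:21236771-21237020, plus strand) held 4 and KIN1 (chr5:5209467-5209716, plus strand) held 1, shown in capitals as ACGTG or its complement CACGT. PDF1.2A (chr5:17907639-17907888, minus strand) and PDF1.2B (chr2:11088873-11089122, plus strand) held 1 GCCGCC each, in capitals, and also 1 ACGTG or CACGT each, left in lower case. The 5 windows were chosen after the values had been seen.
LEA7: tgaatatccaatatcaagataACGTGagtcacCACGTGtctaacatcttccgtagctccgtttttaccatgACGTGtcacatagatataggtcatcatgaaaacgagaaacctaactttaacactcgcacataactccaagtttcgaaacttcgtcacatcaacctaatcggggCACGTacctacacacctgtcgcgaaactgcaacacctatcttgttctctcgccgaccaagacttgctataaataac
RD29B: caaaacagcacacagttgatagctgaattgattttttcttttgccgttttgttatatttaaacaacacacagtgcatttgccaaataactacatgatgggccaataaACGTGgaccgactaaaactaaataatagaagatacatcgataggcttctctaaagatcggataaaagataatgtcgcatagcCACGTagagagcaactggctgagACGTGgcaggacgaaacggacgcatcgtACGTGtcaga
KIN1: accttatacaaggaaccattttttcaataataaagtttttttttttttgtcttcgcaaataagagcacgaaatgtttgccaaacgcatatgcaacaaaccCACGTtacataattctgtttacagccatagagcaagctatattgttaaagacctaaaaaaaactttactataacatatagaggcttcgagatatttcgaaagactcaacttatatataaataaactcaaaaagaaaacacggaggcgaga
PDF1.2A: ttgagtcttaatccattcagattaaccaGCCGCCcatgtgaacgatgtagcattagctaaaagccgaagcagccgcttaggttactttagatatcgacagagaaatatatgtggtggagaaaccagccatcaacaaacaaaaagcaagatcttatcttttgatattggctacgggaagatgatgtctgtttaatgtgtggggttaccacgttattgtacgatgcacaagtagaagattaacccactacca
PDF1.2B: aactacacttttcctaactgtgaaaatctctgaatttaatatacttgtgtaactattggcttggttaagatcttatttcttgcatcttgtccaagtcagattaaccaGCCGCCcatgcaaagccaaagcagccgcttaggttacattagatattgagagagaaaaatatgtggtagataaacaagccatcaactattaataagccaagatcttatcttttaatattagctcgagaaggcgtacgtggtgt

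ACGTG occurred in 7 of the 12 windows of the greatest rises and in 5 of the 12 of the greatest falls, and GCCGCC in 0 and 3 of them. TTGAC, the W box core, was also searched and occurred in 7 and 6 of them. Over all 18870 tested genes with a window, ACGTG occurred in 23.5%. It occurred in 49.4% of the 87 genes that rose at least 8-fold and in 32% of the 147 that fell at least 8-fold. GCCGCC occurred in 1.97% of all windows. It was in 1.15% (1 of 87) of those that rose at least 8-fold and in 4.08% (6 of 147) of those that fell at least 8-fold. For TTGAC these shares were 44.6%, 48.3% and 49.7%. PDF1.3 and PDF1.2C fell as far as PDF1.2A with no GCCGCC in their window, and LTP3, LTP4 and DAA1 rose with no ACGTG. A match is a description of letters and was not tested as a site.

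Cold and abscisic acid genes rose almost throughout. Abscisic acid is the hormone of water deficit, and its pathway and that of cold share target genes. Of 16 measured members of a list of 17, 15 rose and 0 fell, where 21% of all genes rose, and the median log2 fold change was 2.42, against 0.02 for all genes. RD29A, a target of both pathways, had 2003, 1977 and 1948 CPM in ref4-3 cdk8-1 and 241, 223 and 198 CPM in WT (3.16 ± 0.09). COR15B, which protects chloroplast membranes in frost, had 1094, 1207 and 1137 CPM in ref4-3 cdk8-1 and 112, 136 and 111 CPM in WT (3.26 ± 0.11), and COR47, a dehydrin, had 800, 779 and 745 CPM against 212, 225 and 217 CPM in WT (1.83 ± 0.06). The groups did not overlap for any of these genes. COR15B shares 468 bases with a gene on the other strand, AT2G42520. The sum over the list was 9469 to 10010 CPM in ref4-3 cdk8-1 and 1220 to 1508 CPM in WT.

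Regulators on the list moved with the targets. They were chosen for mention after their values were seen. NCED3, the enzyme that limits abscisic acid synthesis, rose by 2.099 ± 0.19, the cold regulator CBF3 by 2.65 ± 0.19, and the phosphatases ABI2 and HAB1, which restrain abscisic acid signalling, by 1.84 ± 0.10 and 1.64 ± 0.08. CBF2 did not pass, at 0.66 ± 0.50, with means of 0.977 CPM in ref4-3 cdk8-1 and 0.622 CPM in WT, and CBF1 was too low to be tested. Compared with ref4-3, 15 of the 16 genes were higher and 1 lower in ref4-3 cdk8-1 (median 1.06; 15.9% of all genes were higher), and compared with cdk8-1, 15 were higher and 0 lower (median 1.57; 16.4% of all genes). The list's median against WT was 1.59 in ref4-3 and 0.89 in cdk8-1.

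Jasmonate genes fell. Jasmonate is made from chloroplast lipids and drives defence against insects and fungi, with JAZ proteins as its repressors and its own early targets. Of 23 members, 21 fell and 0 rose, where 21.6% of all genes fell, and the median was -2.20. LOX2, the lipoxygenase that opens the pathway, had 1564, 1653 and 1934 CPM in ref4-3 cdk8-1 against 8713, 8223 and 6702 CPM in WT (-2.20 ± 0.18). AOC2, the next but one step, had 436, 443 and 535 CPM against 1731, 1769 and 1480 CPM in WT (-1.82 ± 0.19). JAZ6 fell by 1.93 ± 0.20, and CYP94C1, which inactivates the hormone and is induced by it, by 4.26 ± 0.45. JAR1, which makes the active conjugate, and JAZ12 did not pass, at 0.00 ± 0.09 and -0.04 ± 0.09. The list summed to 3585 to 4734 CPM in ref4-3 cdk8-1 and to 13610 to 19360 CPM in WT. Against ref4-3 18 members were lower and 0 higher, where 17% of all genes were lower. Against cdk8-1 17 were lower and 0 higher, where 16.4% of all genes were lower, and the medians against WT were -0.82 in ref4-3 and -0.74 in cdk8-1.

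Of the 9 measured members of the list of 10 defensin and ethylene-jasmonate defence genes, 7 fell and 0 rose (median -3.78), where 21.6% of all genes fell. Beside the PDF1.2 and PDF1.3 genes these were PR4, a chitin-binding protein, with 30.2, 25.3 and 26.9 CPM in ref4-3 cdk8-1 against 374, 313 and 442 CPM in WT (-3.77 ± 0.13), ORA59 (-2.90 ± 0.24), the transcription factor that integrates both hormones at the defensin genes, and PDF1.4 (-1.10 ± 0.28). ORA59 had 1.21, 1.27 and 1.39 CPM in ref4-3 cdk8-1 against 8.08, 9.72 and 11.2 CPM in WT. ERF1, at 0.446 CPM in ref4-3 cdk8-1 and 0.480 CPM in WT on average, and the chitinase gene CHI-B (-0.40 ± 0.19) did not pass. CHI-B overlaps AT3G12502 on the other strand over 1579 bases, and CHI-B in ref4-3 cdk8-1 against WT passed as a fall of 0.62 without WT replicate 2 or without ref4-3 cdk8-1 replicate 2.

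Indolic glucosinolate and camalexin genes, whose tryptophan-derived products act against fungi and insects, also fell. Of 13 measured members of 14, 12 fell and 0 rose (median -1.51), where 21.6% of all genes fell. PAD3, the last enzyme of camalexin synthesis, had 3.21, 4.70 and 3.58 CPM in ref4-3 cdk8-1 against 67.3, 53.2 and 77.3 CPM in WT (-4.09 ± 0.24). MYB51, a regulator of the pathway, fell by 2.26 ± 0.15, IGMT1 by 3.23 ± 0.23 and UGT74B1 by 1.06 ± 0.07. MYB34 did not pass, at -0.48 ± 0.20. Genes of aliphatic glucosinolates, made from methionine, were split, with 3 of 14 higher and 8 lower (median -0.27), where 21% of all genes were higher and 21.6% lower. CYP83A1 fell by 0.91 ± 0.08 and BCAT4 by 0.55 ± 0.09, while the regulator MYB28 rose by 0.74 ± 0.08.

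Salicylic acid genes fell too. Salicylic acid is the hormone of resistance to pathogens that live in living tissue. Of 26 members, 21 fell and 0 rose against WT (median -1.27), where 21.6% of all genes fell. WRKY38, a transcription factor that responds to the hormone, had 0.857, 0.508 and 0.657 CPM in ref4-3 cdk8-1 against 9.71, 8.79 and 8.16 CPM in WT (-3.71 ± 0.29). EDS5, which exports the precursor from chloroplasts, had 5.86, 5.46 and 4.60 CPM against 32.9, 30.9 and 27.6 CPM in WT (-2.52 ± 0.15). WRKY18 fell by 2.34 ± 0.22 and the regulator SARD1, which overlaps AT1G73790 over 640 bases on the other strand, by 1.58 ± 0.15. Members that did not pass were FMO1, NPR1, NPR4, WRKY70 and PR5, from -0.48 to -0.12. In ref4-3 the list stood the other way against the same WT libraries, with 20 higher and 1 lower (median 0.93), where 20.3% of all genes were higher and 19.6% lower. In cdk8-1, 0 were higher and 20 lower (median -1.04), where 8.06% of all genes were higher and 11.8% lower. Set directly against ref4-3, all 26 members were lower in ref4-3 cdk8-1 (median -2.27; 17% of all genes). Against cdk8-1, 2 were higher and 5 lower (median -0.08), where 16.4% of all genes were higher and 16.4% lower.

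The endoplasmic reticulum stress list holds chaperones of secreted proteins and the regulator BZIP60. Of 10 members 8 fell and 0 rose against WT (median -0.51), where 21.6% of all genes fell. All 10 were lower than in ref4-3 (median -0.75), where 17% of all genes were lower. Against cdk8-1, 1 was higher and 6 lower (median -0.35), where 16.4% of all genes were higher and 16.4% lower. Against WT, 8 were higher in ref4-3 (median 0.28; 20.3% of all genes) and 5 lower in cdk8-1 (median -0.18; 11.8% of all genes). BIP3, an inducible chaperone, had 0.214, 0.952 and 0.657 CPM in ref4-3 cdk8-1 against 8.85, 4.82 and 8.58 CPM in WT (-3.56 ± 0.35), and stood at 24.1 to 29.4 CPM in ref4-3. BIP2 fell by 0.58 ± 0.07 and CNX1 by 0.60 ± 0.08. Of the 10 measured members of the 14 heat shock genes, 6 fell and 1 rose (median -0.996), where 21.6% of all genes fell and 21% rose. The regulator HSFA2 fell by 3.05 ± 0.37 and HSP90.1 by 1.46 ± 0.16. In cdk8-1 against WT, 6 fell and 0 rose (median -0.97; 11.8% of all genes fell), and in ref4-3, 4 fell and 2 rose (median -0.25; 19.6% fell). Against cdk8-1, 2 were higher and 1 lower in ref4-3 cdk8-1 (median -0.10), where 16.4% of all genes were higher and 16.4% lower. Against ref4-3, 0 were higher and 3 lower (median -0.49; 17% of all genes were lower). HSP17.6A had 3 counts over the ref4-3 cdk8-1 libraries and 56 over the WT libraries, a ratio of WT over ref4-3 cdk8-1 of 22.9 (7.46 to 115).

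**Figure D5:**
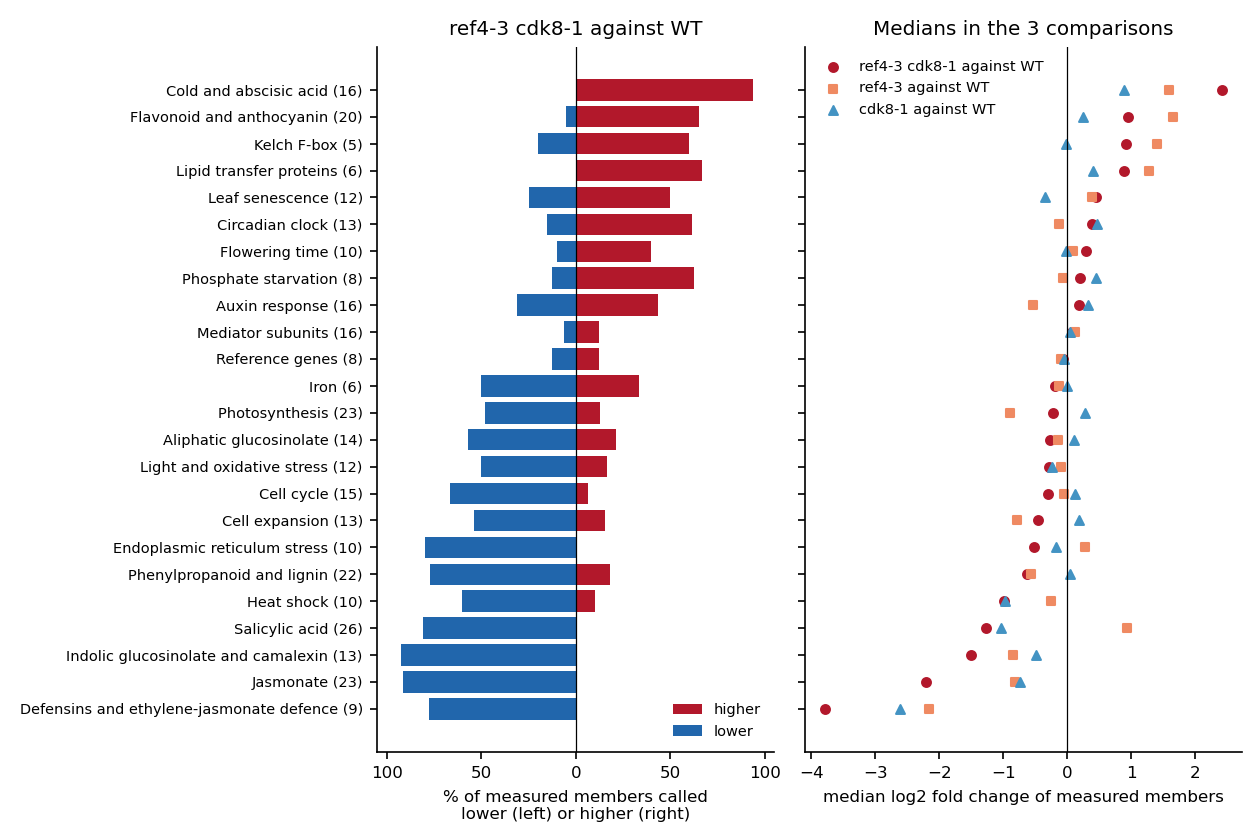
For each of the 24 gene lists, the left panel gives the percentage of measured members (number in parentheses) that were called higher or lower in ref4-3 cdk8-1 than in WT, and the right panel the median log2 fold change from WT in ref4-3 cdk8-1, ref4-3 and cdk8-1, which share the WT libraries. Cold and abscisic acid genes stand at the top (median 2.42) and the defensin list at the bottom (-3.78); the reference gene list turns to a positive median with library totals alone.

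Phenylpropanoid genes, which make lignin and the sinapate esters of leaves, fell in the main, with 17 of 22 lower and 4 higher (median -0.63), where 21.6% of all genes were lower and 21% higher. CAD4, for the last step to lignin monomers, had 16.6, 15.6 and 16.1 CPM in ref4-3 cdk8-1 against 44.5, 44.9 and 46.5 CPM in WT (-1.49 ± 0.08). 4CL1, an early enzyme, had 38.5, 40.2 and 42.0 CPM against 100.2, 100.1 and 106 CPM in WT (-1.34 ± 0.07). Among the members that rose were MYB4 (1.84 ± 0.09), a repressor of the pathway, and UGT84A2 (1.51 ± 0.09), which makes sinapoyl glucose. Against ref4-3, 6 were higher and 7 lower (median -0.11), where 15.9% of all genes were higher and 17% lower. Against cdk8-1, 3 were higher and 15 lower (median -0.52), where 16.4% of all genes were higher and 16.4% lower. The median against WT was -0.57 in ref4-3 and 0.04 in cdk8-1.

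The Kelch F-box genes encode adaptors that mark phenylalanine ammonia-lyase, the entry enzyme of that pathway, for degradation, except KFB-CHS, whose target is chalcone synthase. KFB39 (AT2G44130, chromosome 2, 18253610 to 18255054) had 162, 141 and 152 CPM in ref4-3 cdk8-1 against 7.48, 9.30 and 6.73 CPM in WT (4.28 ± 0.13). KFB50 rose by 0.91 ± 0.07 and KFB20 by 1.16 ± 0.18, KFB01 did not pass at 0.17 ± 0.13, and KFB-CHS fell by 1.84 ± 0.11. KFB39 shares 1445 bases with AT2G44140 and KFB50 1389 bases with AT3G09275, each on the other strand, so their counts are uncertain if strand was ignored. In ref4-3, KFB39 stood higher still, at 254 to 289 CPM, and the combined mutant was lower than ref4-3 by 0.85 on the log2 scale.

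Flavonoid and anthocyanin genes, which draw on the same precursors for pigments and sunscreens, rose in 13 of 20 cases and fell in 1 (median 0.95), where 21% of all genes rose. FLS1, for flavonols, had 80.4, 82.6 and 94.8 CPM in ref4-3 cdk8-1 against 13.2, 19.4 and 16.3 CPM in WT (2.39 ± 0.12), and its regulator MYB111 had 22.4, 20.6 and 22.4 CPM against 3.44, 5.58 and 3.45 CPM in WT (2.38 ± 0.18). F3H rose by 2.34 ± 0.17 but lies over AT3G51238 on the other strand for 1588 bases. The 6 members that did not pass were DFR, LDOX, UGT79B1, UGT75C1, 5MAT and TT8, from 0.11 to 0.65. Other genes of the anthocyanin end passed, namely the transport gene TT19 (1.07 ± 0.24) and the regulators PAP1 (1.21 ± 0.25) and PAP2 (2.69 ± 1.04), the last at means of 0.599 CPM in ref4-3 cdk8-1 and 0.0850 CPM in WT. Set against ref4-3, 12 of the 20 were lower and 2 higher (median -0.66), where 17% of all genes were lower and 15.9% higher. Against cdk8-1, 9 were higher and 1 lower (median 0.67), where 16.4% of all genes were higher and 16.4% lower.

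Photosynthesis genes changed by less than 2-fold against WT. Of 23 nuclear genes for light harvesting and carbon fixation, 11 fell and 3 rose (median -0.22), where 21.6% of all genes fell and 21% rose. RBCS3B, a small subunit of Rubisco, had 3673, 3728 and 3686 CPM in ref4-3 cdk8-1 against 5006, 5758 and 5540 CPM in WT (-0.56 ± 0.09). The 3 that rose were LHCB2.1, LHCB2.2 and LHCB2.3 (0.74 to 0.91), antenna proteins of photosystem II, of which LHCB2.1 and LHCB2.2 are near-identical and LHCB2.3 shares 595 bases with AT3G27700 on the other strand. The combined mutant lay between the single mutants here. Against ref4-3, 18 members were higher and 0 lower (median 0.66), where 15.9% of all genes were higher and 17% lower. Against cdk8-1, 0 were higher and 20 lower (median -0.58), where 16.4% of all genes were higher and 16.4% lower. The medians against WT were -0.89 in ref4-3 and 0.28 in cdk8-1.

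Genes of growth changed unevenly. Of 13 measured cell wall loosening genes of a list of 14, 7 fell and 2 rose (median -0.46), with EXPA8 at 14.9, 10.1 and 9.997 CPM in ref4-3 cdk8-1 against 55.2, 53.3 and 55.6 CPM in WT (-2.23 ± 0.20), XTH9 lower by 1.21 ± 0.09 on the log2 scale, and EXPA10 higher by 0.85 ± 0.07. Of 16 auxin response genes, 7 rose and 5 fell (median 0.18), where 21% of all genes rose and 21.6% fell. The repressor genes IAA6 (-3.60 ± 0.47) and IAA19 (-2.01 ± 0.24) and the auxin-conjugating GH3.3 (-1.79 ± 0.21) fell, and the transporter PIN3 rose (0.65 ± 0.07). Of 15 cell cycle genes, 10 fell and 1 rose (median -0.31), all by less than 2-fold, with KNOLLE, needed for cell plates, at -0.60 ± 0.07 and the replication clamp PCNA2 at -0.57 ± 0.08. With library totals alone 6 cell cycle genes fell and 2 rose, and the 1 rise was lost without WT replicate 3 or ref4-3 cdk8-1 replicate 3.

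Of 13 clock genes, 8 rose and 2 fell (median 0.39), where 21% of all genes rose and 21.6% fell, all but LNK1 by less than 2-fold. LNK1, a coactivator of evening genes, had 80.3, 80.6 and 79.1 CPM in ref4-3 cdk8-1 against 35.6, 37.1 and 37.8 CPM in WT (1.12 ± 0.07). The rises numbered 4 without WT replicate 2 and 5 without ref4-3 cdk8-1 replicate 1, and the falls 1 without WT replicate 2 or 3 or ref4-3 cdk8-1 replicate 1 or 2. Of 10 measured flowering genes of 12, 4 rose and 1 fell (median 0.29), the fall being lost without WT replicate 1 or 2 or ref4-3 cdk8-1 replicate 1 or 2, and 7 rising with library totals alone. MAF5, a repressor of flowering related to FLC, had 14.1, 15.9 and 19.6 CPM in ref4-3 cdk8-1 against 1.29, 1.94 and 2.69 CPM in WT (3.05 ± 0.40), and the neighbouring MAF4 rose by 1.19 ± 0.27. MAF4 was higher than in ref4-3 (1.84) and than in cdk8-1 (1.71), neither of which differed from WT for it (adjusted p = 0.126 and 0.317). SOC1, which promotes flowering, rose by 0.51 ± 0.06.

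Of 8 measured phosphate starvation genes of 11, 5 rose and 1 fell (median 0.20), where 21% of all genes rose and 21.6% fell. The phosphatase genes PS2 and PAP17 rose by 2.03 ± 0.23 and 1.90 ± 0.09, and PHT1-4 fell by 0.87 ± 0.28. The rises numbered 3 without WT replicate 2 or ref4-3 cdk8-1 replicate 3, and the fall of PHT1-4 (2 falls without ref4-3 cdk8-1 replicate 3) was lost without WT replicate 2 or 3 or ref4-3 cdk8-1 replicate 2. Of 6 measured iron genes of 10, 2 rose and 3 fell (median -0.20), in a transcriptome where 42.6% of all genes were called, the falls being the ferritins FER1 (-1.18 ± 0.21), FER3 (-0.43 ± 0.10) and FER4 (-0.92 ± 0.11), which store iron. FER1 lies over AT5G01595 on the other strand for 1334 bases. Of 12 senescence genes, 6 rose and 3 fell (median 0.46). This median was 0.16 without ref4-3 cdk8-1 replicate 3 and 0.26 with limma voom. The regulator ORE1 rose by 2.48 ± 0.20 while WRKY53 fell by 2.64 ± 0.27. Of 12 measured light and oxidative stress genes of 13, 2 rose and 6 fell (median -0.29), with the peroxidase APX1 at 442, 456 and 484 CPM in ref4-3 cdk8-1 against 810, 804 and 800 CPM in WT (-0.80 ± 0.08).

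The other Mediator subunits stayed near WT. Of 16 described, 2 rose and 1 fell, where 21% of all genes rose and 21.6% fell. CDK8 fell, MED12 (0.36 ± 0.09) and MED15A (0.25 ± 0.07) rose, and 13 did not pass, from -0.11 to 0.24. With library totals alone 6 rose, and without WT replicate 2 MED5B in ref4-3 cdk8-1 against WT also passed as a fall of 0.22. MED13, the partner of CDK8 in the kinase module, had 61.1, 60.3 and 52.6 CPM in ref4-3 cdk8-1 and 56.6, 42.1 and 48.3 CPM in WT (adjusted p = 0.0573), and the cyclin genes CYCC1-1 and CYCC1-2 stood at 0.09 ± 0.08 and 0.08 ± 0.07.

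Markers of cell types and reference genes were read beside these results, in which 42.6% of all genes were called, 21% higher and 21.6% lower. Of 10 measured xylem markers of 11, 1 rose (XCP1, 0.94 ± 0.15) and 0 fell. Of 7 phloem markers, SUC2 rose (0.54 ± 0.09) and SEOR1, SEOR2 and PP2-A1 fell (-0.89 to -0.31). Of 8 guard cell markers, KAT1 rose (0.50 ± 0.12), and TGG1 (-0.42 ± 0.10) and FAMA (-0.26 ± 0.10) fell, the call of FAMA being lost without WT replicate 2 or 3 or ref4-3 cdk8-1 replicate 1 or 2. Xylem markers summed to 138 to 183 CPM in ref4-3 cdk8-1 and 124 to 138 CPM in WT. Phloem markers summed to 558 to 649 CPM in ref4-3 cdk8-1 and 621 to 667 CPM in WT, and guard cell markers to 4379 to 5603 CPM in ref4-3 cdk8-1 and 6324 to 7199 CPM in WT, almost all of it TGG1, with means of 5022 CPM in ref4-3 cdk8-1 and 6710 CPM in WT. Their part in the results was not tested. Seed storage genes summed to 0.127 to 1.14 CPM in ref4-3 cdk8-1 and 0.252 to 0.344 CPM in WT, and the root hair genes RHD6 and COBL9 had no count in any of the 6 libraries. Floral organ genes summed to 0.952 to 2.29 CPM in ref4-3 cdk8-1 and 1.85 to 3.97 CPM in WT, and the 1 that was measured, AG, fell by 1.44 ± 0.46, a call lost without WT replicate 2 or ref4-3 cdk8-1 replicate 2. Of 8 genes often used as references, ACT2 fell (-0.60 ± 0.06), GAPC2 rose (0.20 ± 0.06) and 6 did not pass. The rise of GAPC2 was lost without WT replicate 2 or ref4-3 cdk8-1 replicate 1 or 3.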

How the data were processed

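Per the submitters' processing notes, the authors used Trimmomatic, TopHat2 2.1.0 with TAIR10, HTSeq 0.6.1 and edgeR; libraries were stranded, per the labels' protocols. How strand and overlaps were treated in counting is not given in the sources used here. As deposited by the authors, the table holds raw read counts for every gene and no coordinates. Positions, products and promoter windows came from TAIR10.1, which held 18871 of the 18935 genes tested.

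Counts were scaled by TMM (0.937 to 1.08) and fitted with edgeR 4.0.16 (R 4.3.3), a quasi-likelihood model of genotype over all 15 libraries. A gene was called at a Benjamini-Hochberg adjusted p under 0.05 over all genes tested. Fold changes used a prior count of 0.125, and each SE was the log2 fold change divided by the square root of F. Reads of no feature (0.667 to 1.05% of gene counts) were left out. Distances used log2 CPM with a prior count of 2. The fit was run on simulated counts drawn with its own estimates of spread, in which few of the 18935 genes were changed. It recovered 86 of 100 changes of 2-fold and 57 of 100 changes of the square root of 2, with 9 false calls. Far more genes were called in the real data, so this run does not check the scaling or the spread there. Intervals cover counting error only.

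Members and lists were chosen with earlier results of these data known. Named genes were MED5B, CDK8 and DJC66, the 12 greatest rises and 12 greatest falls over 6 libraries averaging 5 CPM or more without overlap, and up to 4 called members of each list by adjusted p; Mediator, Kelch F-box, lipid transfer and defensin genes could be given in full. Others, such as members that did not pass, were named after their values were seen. Alternatives were scaling by library totals or RLE, no filter, a replicate block, 6 libraries only, DESeq2 1.42.0, limma 3.58.1 voom, another prior count for distances and leaving out each library.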

Additional observations from a re-analysis of the deposited data

How the results depend on the processing

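The number of genes called in ref4-3 cdk8-1 against WT ran from 7107 (DESeq2) to 9250 (library totals alone) over the alternatives and from 6638 to 8565 when libraries were left out. Leaving out ref4-1 replicate 3 was chosen after seeing the data. Scaling by library totals alone gave 6396 higher and 2854 lower genes against WT, and 5279 higher and 2035 lower genes against cdk8-1; the alternative's own construction drops the TMM factors, which were 1.02 to 1.05 in ref4-3 cdk8-1, 0.954 to 0.958 in cdk8-1 and 0.937 to 0.963 in WT. The distance between genotypes less that within them was 0.501 with a prior count of 0.5 and ran from 0.454 to 0.487 when libraries were left out. Among called genes picked by the naming rule given above, none changed sign under the alternatives run. Other called genes in the text, such as NCED3 and PAP2, were not part of that check. The balance of higher and lower calls did turn with library totals alone, as above. Under the alternatives the genes picked by the rule kept their side of the threshold 1930 times, gained a call 16 times and lost one 14 times. Of the list counts, 44 moved by over 1.5 times while 768 did not, and 7 other counts or distances moved while 353 did not. The median of the reference genes was 0.05 with library totals alone and -0.07 with TMM, and that of the xylem markers was -0.01 without ref4-3 cdk8-1 replicate 3 and 0.10 with all libraries. Replicate numbers are shared between genotypes, but same-numbered ref4-3 cdk8-1 and WT libraries did not deviate together (correlations of deviations over genes 0.02, -0.01 and -0.08). With a replicate block 8113 genes were called, and MED13 in ref4-3 cdk8-1 against WT passed (edgeR, 0.25, adjusted p = 0.0298). At this depth 1 count was worth up to 0.0810 CPM in WT, which limits folds of genes with few counts.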
